A study of Mus musculus with 8 samples.

Results

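The globin and erythroid genes of the spleen were followed in mice that received all-trans-retinoic acid (tRA) and in control mice. The 9 genes were chosen by name, as the adult globins and well-known erythroid genes, and were found among the 51826 Ensembl genes of the count table through their GENCODE symbols. The data are gene counts from the spleen cells of 8 female BALB/c mice aged 3 months, 4 in the control group and 4 in the tRA group, and pristane was given to neither group. The tRA mice were dosed by mouth every day from weaning at 1 mg/kg body weight, and per the study's methods the vehicle was canola oil. The sample labels give this dose for the control mice as well, and the groups follow the sample titles. Total counts on genes lay between 30919272 and 37539631 in the control mice and between 31810417 and 35165876 in the tRA mice. The study's cell isolation included a step with red blood cell lysis buffer, a reagent made to remove mature red cells. The mouse was the unit of replication throughout.

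The adult mouse spleen makes red blood cells in its red pulp, alongside its work as a lymphoid organ. Erythroid progenitors need signals of erythropoietin through its receptor, and the transcription factors Gata1 and Klf1 turn on the globin genes, heme synthesis and the proteins of the red cell membrane. Late erythroblasts and reticulocytes carry most of their mRNA as globin transcripts. The labelled tissue was checked by its lymphoid markers, and Cd79a, a part of the B cell receptor, lay between 1179 and 1540 CPM (counts on the scale of a shared library size, after TMM normalization) over the 8 mice. Trac, the constant part of the T cell receptor alpha chain, lay between 260 and 334 CPM.

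Hba-a1 and Hba-a2 encode alpha globin and lie on chromosome 11 (GRCm38, chr11:32283511-32284465 and chr11:32296489-32297298, plus strand). Hba-a1 reached 194, 370, 536 and 105 CPM in control replicates 1 to 4, and 550, 146, 792 and 130 CPM in tRA replicates 1 to 4. It was high in tRA replicates 1 and 3 and in control replicate 3, low in control replicate 4 and tRA replicates 2 and 4, and the groups overlapped. Hba-a2 reached 61.8, 83.5, 143 and 26.2 CPM in the control mice, and 95.9, 31.2, 116 and 32.3 CPM in the tRA mice. Control replicate 3 was highest for Hba-a2 and control replicate 4 was lowest, so the control mice spanned all tRA mice. The coding sequences of both genes are 429 bases long in GENCODE M21 and differ at 1 base (99.8% identical), and how the authors counted reads that match both copies is not given in the sources used here. The split between the copies is therefore uncertain.

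Hbb-bs and Hbb-bt encode adult beta globin and lie on chromosome 7 (GRCm38, chr7:103826534-103828096 and chr7:103812524-103813996, minus strand). Hbb-bs reached 499, 967, 1554 and 326 CPM in control replicates 1 to 4, and 1479, 395, 2315 and 379 CPM in tRA replicates 1 to 4. The order of the mice was close to that of Hba-a1, with tRA replicate 3 highest and control replicate 4 lowest, and the groups overlapped. Hbb-bt reached 27.3, 45.1, 89.8 and 15.0 CPM in the control mice, and 91.2, 26.5, 171 and 19.9 CPM in the tRA mice. Its range was the widest of the 9 genes, 11.4-fold from the lowest to the highest mouse. The coding sequences of Hbb-bs and Hbb-bt are 444 bases long and also differ at 1 base. BALB/c mice are known to carry another beta globin haplotype than the C57BL/6J reference, so reads of their beta globin genes were placed on the genes of another strain, and the values of both copies are uncertain for that reason too.

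Together the 4 adult globin genes took 0.0770% of all counts in control replicate 1 (95% Wilson interval 0.0761% to 0.0779%), 0.148% in replicate 2 (0.147% to 0.149%), 0.224% in replicate 3 (0.222% to 0.225%) and 0.0472% in replicate 4 (0.0465% to 0.0480%). They took 0.215% in tRA replicate 1 (0.213% to 0.216%), 0.0597% in replicate 2 (0.0589% to 0.0606%), 0.356% in replicate 3 (0.354% to 0.358%) and 0.0573% in replicate 4 (0.0565% to 0.0582%). These intervals cover counting error only and were far narrower than the differences between mice of 1 group. Counts of beta globin per count of alpha globin stayed between 2.06 and 2.74 in the 8 mice, while the summed globin level ranged from 472 to 3394 CPM. In bulk RNA, fewer erythroid cells and less RNA per cell cannot be told apart.

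Alas2 encodes the first enzyme of heme synthesis in erythroid cells and lies on chromosome X (GRCm38, chrX:150547375-150570638, plus strand). Its level was 22.0, 46.8, 56.3 and 14.0 CPM in control replicates 1 to 4, and 61.4, 16.1, 119 and 18.5 CPM in tRA replicates 1 to 4. Alas2 had the same 5 highest mice in the same order as Hba-a1. Apex2 and Mir3620 overlap it on the opposite strand, and the TruSeq RNA kit that the labels name is known not to mark the strand, so reads of Alas2 and of these genes cannot be told apart where they overlap.

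Slc4a1 encodes band 3, the anion exchanger of the red cell membrane (GRCm38, chr11:102348824-102366203, minus strand). Its level was 35.5, 82.6, 79.9 and 31.0 CPM in control replicates 1 to 4, and 34.3, 37.3, 167 and 37.8 CPM in tRA replicates 1 to 4. Slc4a1 was highest in tRA replicate 3, as the globins other than Hba-a2 were, but tRA replicate 1 now stood among the low mice, and the groups overlapped.

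Epor, the erythropoietin receptor (GRCm38, chr9:21958897-21963506, minus strand), reached 3.54, 4.76, 4.16 and 2.36 CPM in control replicates 1 to 4, and 2.32, 3.31, 6.54 and 2.57 CPM in tRA replicates 1 to 4. Gata1, a transcription factor also used by megakaryocytes, basophils and mast cells (GRCm38, chrX:7959260-7978071, minus strand), reached 4.52, 6.54, 6.07 and 2.97 CPM in the control mice, and 4.31, 3.90, 7.27 and 4.34 CPM in the tRA mice. Klf1, a transcription factor of erythroid cells (GRCm38, chr8:84901928-84905291, plus strand), reached 4.14, 6.82, 4.36 and 2.00 CPM in the control mice, and 2.44, 3.78, 7.62 and 2.87 CPM in the tRA mice. The 3 genes were highest in tRA replicate 3 and next highest in control replicate 2, and the groups overlapped in each. Their range over the mice was 2.81-fold for Epor, 2.44-fold for Gata1 and 3.80-fold for Klf1, narrower than that of the globins.

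Per length, the levels of the 9 genes over all 8 mice fell from Hbb-bs with 1288 CPM per kb of exon to Hba-a1 with 435, Hba-a2 with 110 and Hbb-bt with 86.4 CPM per kb. The order of the last pair turned between the groups, with 118 CPM per kb for Hba-a2 and 63.0 for Hbb-bt in the control mice, and 103 and 110 in the tRA mice. Alas2 followed with 18.4 and Slc4a1 with 12.9 CPM per kb. Klf1 with 2.78, Gata1 with 2.05 and Epor with 1.86 CPM per kb came last, and the ranges of these 3 genes over the mice overlapped.

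**Figure D1:**
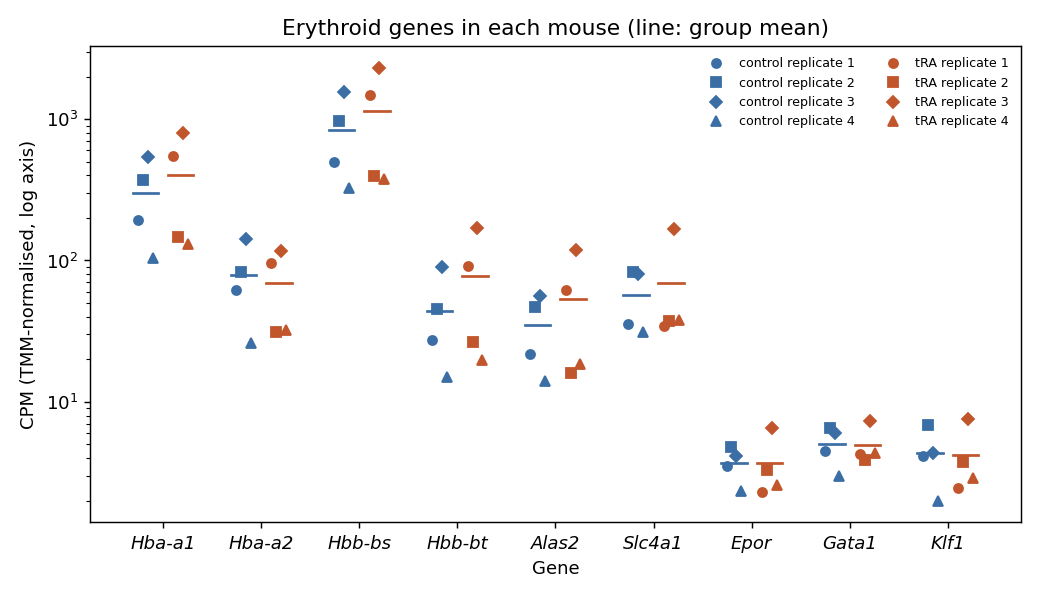
CPM after TMM normalization on a log axis for the 9 genes, with a point for each of the 4 control mice (blue) and 4 tRA mice (orange), a marker shape for each replicate number, and a line at the group mean. The groups overlap for each gene, and Hbb-bs runs from 326 CPM in control replicate 4 to 2315 CPM in tRA replicate 3.

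Of the 9 genes, which all passed the filter on low counts, 0 had an FDR under 0.1 between tRA and control by the quasi-likelihood test of edgeR, its p-values adjusted over 16484 genes by Benjamini-Hochberg, beside 0% of all genes tested. At an unadjusted p under 0.05 there were again 0 of the 9, against 6.49% of all genes, and 0 had groups that did not overlap, against 3.54%. DESeq2 also called 0 of the 9 at an FDR under 0.1, against 0.197% of the genes for which it gave an adjusted p. Hbb-bs averaged 837 ± 550 CPM in the control mice and 1142 ± 936 CPM in the tRA mice (SD, n = 4 each), a log2 fold change of 0.45 with a standard error of 0.61 and an edgeR FDR of 0.891. The 95% interval of this log2 fold change ran from -0.90 to 1.79, or from 0.537-fold to 3.47-fold. Hbb-bt had the largest log2 fold change, 0.80 ± 0.67 (SE), with an edgeR FDR of 0.833. For Hba-a1 it was 0.43 ± 0.61 (SE) and for Hba-a2 -0.19 ± 0.52 (SE). Alas2 averaged 34.8 ± 20.1 CPM in the control mice and 53.8 ± 48.4 CPM in the tRA mice (SD, n = 4 each), a log2 fold change of 0.63 ± 0.61 (SE). For Slc4a1 it was 0.27 ± 0.53 (SE), or 0.05 in limma-voom and with the replicate number as a block, and the values of Hba-a1, Hbb-bs and Alas2 were also smaller in both fits. Gata1, Klf1 and Epor had log2 fold changes of -0.02 ± 0.27, -0.05 ± 0.40 and -0.01 ± 0.33 (SE). The median log2 fold change was 0.27 over the 9 genes and 0.0014 over all genes tested.

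The spread between mice of 1 group was large for these genes. On the log2 CPM scale the SD within groups was 1.29 for Hbb-bt, 1.19 for Hba-a1 and Alas2, 1.18 for Hbb-bs, 1.01 for Hba-a2 and 0.94 for Slc4a1, against a median of 0.19 over all genes tested. Hbb-bt ranked 23, Hba-a1 45, Alas2 46 and Hbb-bs 51 among 16484 genes by this SD. Klf1 had an SD of 0.72, Epor of 0.56 and Gata1 of 0.46.

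Leaving out a single mouse turned the direction of each of the 9 genes except Hbb-bt. Without tRA replicate 3 the log2 fold change became -0.13 for Hba-a1, -0.16 for Hbb-bs, -0.12 for Alas2 and -0.65 for Slc4a1, while that of Hbb-bt fell to 0.05. Without control replicate 3 it became 0.93 for Hbb-bs and 0.26 for Hba-a2, and without tRA replicate 1 it became 0.16 for Epor, 0.04 for Gata1 and 0.14 for Klf1. When tRA replicate 3 and control replicate 4 were left out together, Slc4a1 (log2 fold change -0.86), Klf1 (-0.75), Epor (-0.60) and Gata1 (-0.45) had unadjusted p-values of 0.0093, 0.015, 0.018 and 0.038 in edgeR, 4 of 9 genes against 4.67% of all genes. Their edgeR FDR was 0.927 each. These 2 mice were picked after the data were seen because their erythroid levels were the highest and the lowest. The choice itself used the levels compared and by itself moves these genes lower with tRA. The fit is given for completeness and not as a difference between groups.

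tRA replicate 1 had globin levels near the top and levels of Klf1 and Epor near the bottom, a feature chosen after its values were seen. Gata1, at 4.31 CPM in this mouse, lay above tRA replicate 2 (3.90 CPM) and control replicate 4 (2.97 CPM). Counts of Hbb-bs per count of Klf1 were 121, 142, 356 and 163 in control replicates 1 to 4, and 605, 104, 304 and 132 in tRA replicates 1 to 4. Counts of Alas2 per count of Klf1 were 5.30, 6.86, 12.9 and 6.97 in the control mice, and 25.1, 4.25, 15.7 and 6.43 in the tRA mice. Both ratios were highest in tRA replicate 1, then in control replicate 3 and tRA replicate 3 or the reverse, and the groups overlapped. Slc4a1 behaved otherwise, with 0.558 counts per count of Alas2 in tRA replicate 1 and between 1.40 and 2.32 in the other 7 mice. Per count of Gata1, Alas2 was lower in tRA replicate 1 (2011 Alas2 and 141 Gata1 counts) than in tRA replicate 3 (4404 and 268). Hbb-bs per count of Gata1 was still highest in tRA replicate 1. Counts of Gata1 per count of Klf1 were also highest in tRA replicate 1, at 1.76 against 0.954 to 1.51 in the other mice. Red pulp macrophage genes were lowest in this mouse as a sum, 420 CPM against 457 to 743 CPM in the others, and their part in the ratios was not tested.

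**Figure D2:**
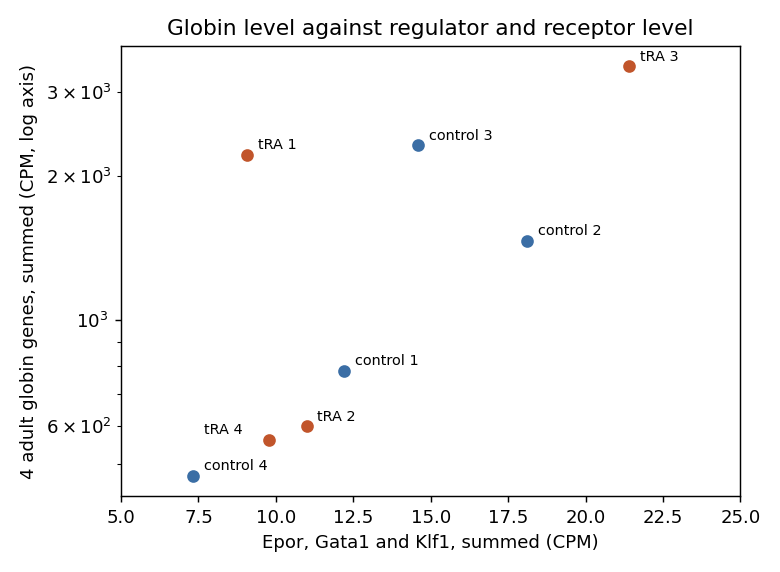
Summed CPM of the 4 adult globin genes on a log axis against the summed CPM of Epor, Gata1 and Klf1, with a point for each of the 8 mice, control in blue and tRA in orange. tRA replicate 1 lies at 2216 CPM of globin and 9.07 CPM of the 3 genes, and tRA replicate 3 at 3394 and 21.4 CPM.

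Within the alpha globin counts, the share of Hba-a1 was 75.8% (95% Wilson interval 74.9% to 76.7%), 81.6% (81.0% to 82.2%), 79.0% (78.4% to 79.5%) and 80.0% (78.7% to 81.2%) in control replicates 1 to 4. It was 85.1% (84.7% to 85.6%), 82.4% (81.4% to 83.4%), 87.2% (86.9% to 87.6%) and 80.1% (79.0% to 81.2%) in tRA replicates 1 to 4. The groups overlapped, since tRA replicate 4 lay below control replicate 2. Hbb-bs took between 93.1% and 95.6% of the beta globin counts in the 8 mice. These shares were looked at after the values were seen. The near-identity of the copies in the reference limits them, and for beta globin the other haplotype of BALB/c mice does too.

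Among the other globin genes, the embryonic genes were at or near 0. Hbb-bh1 had 0 counts in all 8 mice, and Hba-x, Hbb-y and Hbb-bh2 had at most 2, 1 and 1 counts in any mouse. Hbq1b, a theta globin gene and the most abundant per length of this list, reached 0.35, 0.50, 0.69 and 0.16 CPM in the control mice, and 0.89, 0.16, 1.03 and 0.21 CPM in the tRA mice. It was high and low in the same mice as Hba-a1, and it was the only gene of the 6 in this list that passed the filter on low counts.

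Of 89 other erythroid genes in 7 lists, 82 were tested, and 0 had an edgeR FDR under 0.1. Over the mice, 27 of the 82 ranked among the 100 genes with the highest Pearson correlation to the mean level of the chosen genes. Others did not rise with that level, such as Ikzf1 (mean 577 CPM, coefficient -0.52), Jak2 (153 CPM, -0.54) and Bcl11a (212 CPM, -0.21). Results pooled over the 82 therefore include genes that did not rise with the erythroid level. The cells expressing these genes were not tested. At an unadjusted p under 0.05 there were 2 of the 82, 1 higher and 1 lower, against 6.49% of all genes, and their median log2 fold change was -0.0009 beside 0.0014 over all genes tested. The count was 11 without tRA replicate 3 (5.21% of all genes), 6 without tRA replicate 1 (12.6%), and 1 without control replicate 1 (5.25%) or control replicate 3 (5.44%). With tRA replicate 3 and control replicate 4 both left out it was 25, all lower with tRA (4.67% of all genes), in the fit whose mice were picked by erythroid level. Leaving out the highest tRA mouse and the lowest control mouse by itself moves such genes lower with tRA. The share of all genes is therefore no reference for that count. Epb41, which encodes protein 4.1 of the red cell skeleton, reached 223, 232, 208 and 215 CPM in the control mice, and 245, 231, 283 and 241 CPM in the tRA mice. The groups overlapped in tRA replicate 2, and the log2 fold change of Epb41 was 0.19 with an edgeR FDR of 0.757. Lyl1, a basic helix-loop-helix factor of blood progenitors and B cells, reached 90.0, 104, 96.8 and 94.4 CPM in the control mice, and 78.5, 82.3, 86.3 and 92.6 CPM in the tRA mice. Its log2 fold change was -0.18 with an edgeR FDR of 0.757, and the groups overlapped in tRA replicate 4.

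By list, the median log2 fold change was 0.02 over the 7 heme synthesis enzymes, -0.03 over the 10 genes of iron uptake and heme transport, 0.07 over 18 tested genes of the red cell membrane and skeleton, -0.03 over the 12 erythroid transcription factors and cofactors, -0.03 over 13 tested genes of erythropoietin signalling and 0.05 over the 21 late erythroblast genes. Icam4 of the membrane list had 0 counts in all 8 mice. Of the 18 membrane genes tested, 14 were highest in tRA replicate 3 and 10 lowest in control replicate 4, and the median SD within groups was 0.79 on the log2 scale. Over all 82 other erythroid genes tested these counts were 38 and 29. They were 1 and 2 for the 12 transcription factors and cofactors, and 1 and 2 for the 13 tested genes of erythropoietin signalling. The heme synthesis enzymes, which every cell type makes, had a median SD of 0.19, beside 0.19 over all genes. The most abundant genes per length were Alad among the heme synthesis enzymes (46.8 to 66.9 CPM), Slc25a37, the mitochondrial iron importer (191 to 271 CPM), Cd24a (245 to 431 CPM), Ldb1 (465 to 527 CPM), Ptpn6 (783 to 909 CPM) and Bnip3l (71.1 to 108 CPM). Cd24a, Ldb1 and Ptpn6 are also expressed by lymphocytes and other spleen cells.

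The genes most alike to the 9 were found by Pearson correlation of log2 CPM with the mean standardised level of the 9 genes over the 8 mice, as a description and with no p. The closest 10 of 16475 genes had coefficients between 0.953 and 0.982. Of these genes, Car2, Fech, Trim10, Epb42 and Tspo2 stood in the lists of erythroid genes, and Tldc1, Clybl and Aldh1a1 did not. Car2, a carbonic anhydrase of red cells and other cells, reached 48.2, 65.4, 61.1 and 36.6 CPM in the control mice, and 49.3, 45.7, 79.1 and 43.0 CPM in the tRA mice. Epb42, which encodes protein 4.2 of the red cell membrane, reached 2.11, 5.01, 4.22 and 1.68 CPM in the control mice, and 2.47, 2.14, 8.43 and 2.11 CPM in the tRA mice. Both were highest in tRA replicate 3 and lowest in control replicate 4. Aldh1a1, an enzyme that makes retinoic acid from retinal, reached 2.30, 3.52, 2.80 and 1.23 CPM in the control mice, and 2.78, 1.95, 5.10 and 1.34 CPM in the tRA mice, with a log2 fold change of 0.19 and an edgeR FDR of 0.941. Tldc1 varied by only 1.16-fold between its lowest and highest mouse.

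Markers of other cells were read in the same fit, where 6.49% of all genes had an unadjusted p under 0.05 and 0 genes, these markers included, had an edgeR FDR under 0.1 (lowest 0.135). Megakaryocyte and platelet genes, which share Gata1, summed to between 136 and 159 CPM, most of it Itgb3 (118 to 142 CPM), which macrophages also express, while Pf4 stayed at or under 0.72 CPM, and 0 of 10 tested had an unadjusted p under 0.05. Genes of basophils, mast cells and eosinophils summed to between 24.1 and 45.5 CPM, with 0 of 8 tested. Most of this sum was Hdc (14.6 to 39.5 CPM), while the other genes of the list stayed at or under 3.58 CPM. Red pulp macrophage genes, led by Hmox1, gave 0 of 10 tested. B cell and T cell genes gave 0 of 6 each. Stem and progenitor genes, led by Cd48 (103 to 133 CPM), gave 1 of 8. This was Slamf1 (30.3 to 42.6 CPM), higher with tRA with overlapping groups, while the median log2 fold change of the 8 was -0.003. Neutrophil precursor genes, led by Ngp, had 10 of 12 at an unadjusted p under 0.05, all lower with tRA, and summed to 572, 721, 757 and 652 CPM in control replicates 1 to 4, and to 264, 328, 359 and 516 CPM in tRA replicates 1 to 4. Immediate early genes, led by Fos, had 3 of 8, all lower with tRA, and summed to 15090, 14430, 13550 and 12150 CPM in the control mice, and to 13800, 11000, 5363 and 6773 CPM in the tRA mice. tRA replicate 3, the mouse with the highest level of 8 of the 9 erythroid genes, thus had the lowest sum of immediate early genes, while tRA replicate 4, the next lowest, was among the low mice for globins. The part of these markers in the erythroid levels was not tested.

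Promoter sequences were examined because the 9 genes varied together over the mice but the globins and Alas2 parted from Klf1 and Epor in tRA replicate 1. RefSeq promoters (GRCm38.p6) were matched for 8 of the 9 genes, and Slc4a1 was not among them. The 250 bases before the start were searched on both strands for the letters known for GATA factors (the words AGATAA and AGATAG, as well as the words TGATAA and TGATAG), and for CCNCNCCC, the letters known for Klf1. The first were found in 6 of the 8 promoters, all but Hbb-bt and Gata1, and in 26.6% of all 32817 promoters. The matches of Hba-a1 and Hba-a2 lie in a stretch that both copies share, so they are not separate observations. The latter were found in 5 of the 8, namely Hbb-bs, Hbb-bt, Alas2, Epor and Gata1, and in 45.9% of all promoters. Both were found in Hbb-bs, Alas2 and Epor, and in 8.2% of all promoters. A match is a description of letters and not a site. The bases before the RefSeq start, up to the first GENCODE exon where that begins earlier, are shown for a globin, for Alas2 and for the pair that parted from them, 5′ to 3′ on the strand of the gene, with matches in capitals: chr11:32296242-32296488 on the plus strand for Hba-a2, chrX:150547167-150547374 on the plus strand for Alas2, chr9:21963577-21963826 on the minus strand for Epor and chr8:84901732-84901927 on the plus strand for Klf1.
Hba-a2: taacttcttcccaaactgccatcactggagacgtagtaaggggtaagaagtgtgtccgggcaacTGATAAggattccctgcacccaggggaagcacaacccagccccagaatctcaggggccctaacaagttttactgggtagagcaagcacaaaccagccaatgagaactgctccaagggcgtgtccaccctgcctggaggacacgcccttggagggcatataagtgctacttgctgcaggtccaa
Alas2: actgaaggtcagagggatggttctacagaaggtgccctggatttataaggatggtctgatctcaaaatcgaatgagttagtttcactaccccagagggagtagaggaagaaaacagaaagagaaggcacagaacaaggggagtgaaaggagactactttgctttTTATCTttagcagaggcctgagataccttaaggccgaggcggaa
Epor: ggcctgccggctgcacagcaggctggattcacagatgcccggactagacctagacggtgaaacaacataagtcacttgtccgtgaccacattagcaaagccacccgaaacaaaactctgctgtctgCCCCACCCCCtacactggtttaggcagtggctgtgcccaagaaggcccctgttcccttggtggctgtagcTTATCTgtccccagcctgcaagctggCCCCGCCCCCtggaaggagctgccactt
Klf1: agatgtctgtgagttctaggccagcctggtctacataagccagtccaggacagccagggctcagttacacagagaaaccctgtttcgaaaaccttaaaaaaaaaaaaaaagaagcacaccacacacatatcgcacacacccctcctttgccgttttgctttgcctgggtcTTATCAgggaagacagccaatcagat
The CCNCNCCC matches of Alas2 lie past the stretch shown, inside an annotated exon, and that of Hbb-bs, whose sequence is not shown, also lies inside an annotated exon.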

How the data were processed

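The authors deposited raw counts per gene for each of the 8 libraries, not normalized. Per the labels' processing notes the tools were STAR 2.5.2b and featureCounts 1.5.1 on GRCm38, while the study's methods name Bowtie2, Tophat2 and HTSeq, and the count table does not say which were used. A deposited table of the authors' own DESeq2 comparison (means of normalized counts, log2 fold changes, errors, statistics and p-values) was not used. The members and lists were chosen with earlier results of these data known.

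Of 51826 gene identifiers, 51633 had an entry in GENCODE M21, which gave symbols, positions and exon lengths. Genes were kept by filterByExpr with a minimum of 10 counts (16484 genes), scaled by TMM factors and compared in edgeR 4.0.16 (quasi-likelihood test, R 4.3.3) without covariates, with Benjamini-Hochberg adjustment over all genes tested and a threshold of 0.1 on the FDR. The fits were tested on simulated data. CPM are counts over the TMM-scaled library size, on a shared scale. Shares of counts have 95% Wilson intervals. Figures were drawn in Python 3.11.15 with matplotlib 3.10.9.

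Named genes were the 9 members; of each erythroid list the genes past an unadjusted p of 0.05 and the most abundant per length; of each marker list the most abundant per length and genes at 0; and the 10 most alike by correlation, some of which are not reported here. Ratios of counts, copy shares and some genes with them were chosen after values were seen. Ahsp and Fam132b were not matched by symbol. Alternatives were DESeq2 1.42.0, limma-voom (limma 3.58.1), other normalizations, filters and empirical Bayes settings, a replicate block, summed globin copies and each mouse left out. A fit without the mice of the highest and lowest erythroid level was added after seeing the data.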

Additional observations from a re-analysis of the deposited data

Results flagged for a closer look

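In 78 groups of 4 mice, covering the 9 genes, the named list genes and the summed lists, 6 held a mouse whose gap to the nearest other passed Dixon's critical value for the share of the group's range, where chance gives about 1 in 20. Of the 6, 5 were tRA replicate 3, and they are not independent, since the same mouse and partly the same genes enter each. In tRA replicate 3, Slc4a1 reached 167 CPM, Gata1 7.27 CPM and Slc25a37 271 CPM, each above the other tRA mice. In the same mouse the summed heme synthesis enzymes reached 342 CPM and the sum of Epor, Gata1 and Klf1 reached 21.4 CPM. Ptpn6 was low in tRA replicate 1, at 803 CPM. What set these mice apart was not tested.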

How the results depend on the processing

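The count of the 9 genes at an FDR under 0.1 stayed at 0 in each alternative run, and the lowest FDR of any of the 9 was 0.707. Over all genes, edgeR called 0, with 1070 at an unadjusted p under 0.05, while DESeq2 called 27, edgeR without the filter on low counts 6 and limma-voom 1, and leaving out each mouse gave 0 to 3 calls. The other erythroid genes at an unadjusted p under 0.05 numbered 2, against 6.49% of all genes, or 1 with library size alone (7.0% of all genes). They numbered 3 without the filter on low counts (5.34%), with at least 10 counts in every mouse (6.91%) or with the replicate block (7.28%). With a mouse left out they numbered 1 to 11, and the share of all genes lay between 3.93% and 12.6%. Of 327 log2 fold changes of named genes under the alternatives, 293 kept their direction and 34 reversed; the cause was not tested.

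When single mice were dropped, log2 fold changes ranged from -0.131 to 0.855 for Hba-a1, -0.566 to 0.263 for Hba-a2, -0.158 to 0.929 for Hbb-bs, 0.05 to 1.40 for Hbb-bt, -0.121 to 0.963 for Alas2, -0.652 to 0.502 for Slc4a1, -0.442 to 0.162 for Epor, -0.266 to 0.132 for Gata1, -0.516 to 0.254 for Klf1, -0.0284 to 0.76 for Hbq1b and -0.0154 to 0.0572 for Ptpn6. Library size alone gave 0.0373 for Epor and 0.0199 for Gata1, no filter gave 0.000332 for Epor, limma-voom gave 0.00577 for Gata1, and summing the alpha globin copies gave 0.318 in place of the value of Hba-a2, and summing the beta globin copies gave 0.469 in place of that of Hbb-bt. Some values kept their direction but were over 1.5 times smaller. With limma-voom they were 0.259 for Hba-a1, 0.264 for Hbb-bs, 0.375 for Alas2, 0.0526 for Slc4a1 and 0.181 for Hbq1b, and with the replicate block 0.282 for Hba-a1, 0.282 for Hbb-bs, 0.416 for Alas2 and 0.0484 for Slc4a1.

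A fit without tRA replicate 3 and control replicate 4 was chosen after seeing the data, by the erythroid levels of these mice. It gave 4 of the 9 genes and 25 of the other erythroid genes at an unadjusted p under 0.05, and log2 fold changes of -0.413 for Hba-a1, -0.423 for Hbb-bs, -0.235 for Hbb-bt, -0.381 for Alas2, -0.856 for Slc4a1, -0.286 for Hbq1b and -0.0267 for Ptpn6. Since the mice were picked by the outcome, nothing about the groups rests on it.

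With the replicate block, 0 of the 9 genes and 3 of 82 other erythroid genes had an unadjusted p under 0.05, against 7.28% of all genes, and 0 genes had an FDR under 0.1. Deviations of same-numbered mice correlated at 0.157, -0.0229, -0.014 and 0.259, with no reference value for unpaired mice. The sample titles link these mice by number alone, and a pairing beyond that was not tested. With 4 mice a group and an SD near 1 on the log2 scale, only large changes of the globins could have been detected.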
